A study of Mus musculus with 9 samples.

Results

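The 10 genes described are mostly secretory genes of mucosal epithelia. These are the trefoil factors Tff1, Tff2 and Tff3, the mucins Muc1, Muc4, Muc5ac and Muc6, the gastric-type products Pgc and Gkn2, and the myeloid lysozyme gene Lyz2. They were taken by gene name from 32137 genes counted in 9 RNA sequencing libraries of sorted cells from mouse bile duct organoids. The set was chosen by measured values of these libraries, the fall of Tff3 and the rise of Pgc in cells given R-spondin 1 (Rspo1), so the differences of these 10 genes between Rspo1-treated and untreated cells are given as a description, without a test. Tests are given for what that choice did not name: the reporter gate under Rspo1, the organoid passage, and other genes of the same pathways. The gate and the lists are not independent of these data. The gate comparison uses the same treated libraries, and the lists of other genes were drawn up with earlier results of these data known. Of the 10 genes, 7 had enough reads to enter the fit across 17011 genes; Muc6, Gkn2 and Lyz2 did not.

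All organoids came from 1 male mouse of mixed background with the genotype Axin2CreERT2+/-; R26-LSL-tdTom+/-. In such cells the Axin2 locus, a target of canonical Wnt signalling, drives a Cre recombinase that 4-hydroxytamoxifen (4-OHT) switches on, and Cre then turns on the red reporter tdTom. Expansion lasted 2 to 4 days and differentiation 11 days. For the last 24 hours every group received 3 uM dexamethasone, a glucocorticoid, and 500 nM 4-OHT, and the treated groups also received 100 ng/ml Rspo1, a secreted protein that strengthens Wnt signalling. The untreated group held tdTom-negative cells without Rspo1, the Rspo1-negative group tdTom-negative cells with Rspo1, and the Rspo1-positive group tdTom-positive cells with Rspo1. Each group had 3 libraries, from passages 5, 6 and 10, called replicates 1, 2 and 3. No tdTom-positive untreated group was analysed here, so reporter gate and treatment cannot be told apart where Rspo1-positive cells are set against untreated ones. With a single animal, no p-value covers the spread between animals. Those of group comparisons without passage in the model measure the spread between cultures of that animal.

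Trefoil factors are small secreted peptides held together by disulfide bonds between cysteines; mucus-producing cells release them together with mucins, and they are known for their part in repair of gut and airway linings. Muc5ac and Muc6 are gel-forming mucins of gastric pit and gland cells, whereas Muc1 and Muc4 are anchored in the apical membrane. Pgc is progastricsin, also called pepsinogen C, the precursor of an aspartic protease of the stomach. Gkn2 is a gastrokine that gastric pit cells secrete, and Lyz2 is the lysozyme gene of macrophages and other myeloid cells. In the biliary tree, mucins and trefoil peptides are products of the larger ducts and their glands.

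Total counts per library ran from 23423979 to 37351448. The labelled cell type was checked against 10 duct markers, all of which were present, with summed levels of 11819 to 14551 CPM (counts divided by the scaled library total) in untreated cells, 13166 to 16439 in Rspo1-negative cells and 10771 to 11030 in Rspo1-positive cells. Fibroblast markers summed to at most 1.24 CPM and endothelial markers to at most 0.80 CPM in any library. Of 12 myeloid markers 7 were in the files, and their sum of 383 to 696 CPM over the 9 libraries was mostly Cd14. Others were measurable too. Csf1r averaged 47.5, 44.4 and 42.7 CPM, Cd68 13.2, 12.7 and 7.68 and Itgam 8.53, 8.71 and 9.45 in untreated, Rspo1-negative and Rspo1-positive cells. Fcer1g (0.202, 0.231 and 0.246) and Aif1 (0.787, 0.766 and 1.38) were rarer. Ptprc had at most 3 counts in each Rspo1-positive library, but not in every library of the other groups. A list of 16 proliferation genes summed to 190 to 293 CPM in untreated, 429 to 508 in Rspo1-negative and 917 to 1245 in Rspo1-positive libraries, in the reverse order of Tff3, and its part in the results below was not tested. A list of 12 genes induced by tissue dissociation summed to 982 to 1525, 1048 to 1362 and 1153 to 2305 CPM in the same order. The Rspo1-negative libraries stood apart by base composition: across 17001 genes the rank correlation of GC content with the log2 fold change was -0.50 for Rspo1-positive against Rspo1-negative and 0.50 for Rspo1-negative against untreated cells, but -0.013 for Rspo1-positive against untreated cells. Values from a fit with an offset for GC content and transcript length are therefore given beside results that rest on the Rspo1-negative libraries.

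The 3 trefoil genes lie side by side on the minus strand of chromosome 17 within 39972 bases (GRCm38, GENCODE M21 annotation). Tff3 (ENSMUSG00000024029) is at 31125306 to 31129646, Tff2 (ENSMUSG00000024028) at 31141049 to 31144282 and Tff1 (ENSMUSG00000024032) at 31161395 to 31165277. Their coding sequences are shown 5′ to 3′ because the trefoil fold rests on paired cysteines; every in-frame cysteine codon (TGT or TGC) is in capitals. Tff1 and Tff3 run from start to stop codon, and Tff2 from base 85 to base 384 of its 390.
Tff1: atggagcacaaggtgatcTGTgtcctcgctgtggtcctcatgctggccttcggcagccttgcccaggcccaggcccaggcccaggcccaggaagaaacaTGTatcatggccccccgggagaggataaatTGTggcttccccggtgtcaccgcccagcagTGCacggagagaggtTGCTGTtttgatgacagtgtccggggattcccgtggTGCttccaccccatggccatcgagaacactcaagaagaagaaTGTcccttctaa
Tff2: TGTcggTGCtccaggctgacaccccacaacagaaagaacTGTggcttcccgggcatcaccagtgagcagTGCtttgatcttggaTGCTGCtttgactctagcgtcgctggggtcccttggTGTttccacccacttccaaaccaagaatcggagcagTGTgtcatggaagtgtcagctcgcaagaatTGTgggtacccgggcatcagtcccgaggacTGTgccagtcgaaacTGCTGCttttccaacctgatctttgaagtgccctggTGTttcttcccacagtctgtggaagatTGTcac
Tff3: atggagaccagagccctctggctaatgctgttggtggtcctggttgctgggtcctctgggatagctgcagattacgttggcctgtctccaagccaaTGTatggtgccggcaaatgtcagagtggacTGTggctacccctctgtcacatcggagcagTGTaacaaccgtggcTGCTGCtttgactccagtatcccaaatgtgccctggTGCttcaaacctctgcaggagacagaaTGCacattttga
The Tff1, Tff2 and Tff3 sequences have 264, 390 and 246 bases in full, with 8, 14 and 7 cysteine codons, and the larger number in Tff2 goes with its tandem pair of trefoil domains. Pairwise identity was 62.8% between Tff1 and Tff2, 62.2% between Tff1 and Tff3, and 64.6% between Tff2 and Tff3. No stretch of 75 bases, the read length, in the Tff2 or Tff3 transcript occurred in a transcript of another gene, so an error-free read of either gene matches no other transcript. For Tff1, 12.9% of such stretches were shared with Gm15318, an antisense gene that covers 31.4% of its exon bases; whether the counting used strand is not given in the sources used here, and Tff1 values may hold antisense reads.

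Pgc (ENSMUSG00000023987) lies elsewhere on chromosome 17, at 47726842 to 47734482 on the plus strand, and Muc1 (ENSMUSG00000042784) is on chromosome 3 at 89229057 to 89233381, also on the plus strand. The 250 bases before the start of these 2 genes (RefSeq promoter entries, GRCm38.p6, plus strand, chr17:47726592-47726841 and chr3:89228806-89229055) are shown because the 2 genes went in opposite directions from untreated to Rspo1-treated cells; the letters TATAAA are in capitals.
Pgc: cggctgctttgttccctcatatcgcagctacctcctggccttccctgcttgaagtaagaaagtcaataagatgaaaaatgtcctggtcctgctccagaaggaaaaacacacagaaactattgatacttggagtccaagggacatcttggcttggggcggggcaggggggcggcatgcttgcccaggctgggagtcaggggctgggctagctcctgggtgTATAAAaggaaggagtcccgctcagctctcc
Muc1: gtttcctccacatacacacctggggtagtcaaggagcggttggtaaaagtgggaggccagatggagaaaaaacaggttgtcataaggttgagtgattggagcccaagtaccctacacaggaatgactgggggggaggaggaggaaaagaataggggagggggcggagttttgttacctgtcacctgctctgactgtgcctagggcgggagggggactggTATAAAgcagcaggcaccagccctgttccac
In both windows TATAAA stands 31 to 26 bases before the start. Muc4 has it at -36 to -31 and Gkn2 at -29 to -24, so that 4 of the 6 entries found for the 10 genes hold TATAAA on either strand, against 12.4% of 32851 promoter entries. The letters CTTTGAA or CTTTGAT, a form of the TCF/LEF motif, are in 7.48% of all entries on either strand and in none of the 6 windows. The 6 windows are those of Pgc, Muc1, Muc4, Muc6, Gkn2 and Lyz2. No entry was found for Tff1, Tff2, Tff3 or Muc5ac, so their promoters were not searched. These are letter matches only. Muc4 (chromosome 16, 32735886 to 32782391, plus strand) shares 5.33% of its exon bases with Muc20 on the opposite strand. Muc5ac (7:141788972 to 141819231, plus) and Muc6 (7:141633456 to 141655319, minus) lie in the gel-forming mucin cluster of chromosome 7, Gkn2 is on chromosome 6 (87373357 to 87379497, plus), and Lyz2 is on chromosome 10 (117277331 to 117282321, minus).

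Tff3 had the largest fitted difference of the 7 genes. Its level at passages 5, 6 and 10 was 513, 691 and 485 CPM in untreated cells, 147, 99.9 and 48.9 CPM in Rspo1-negative cells, and 59.1, 20.9 and 17.4 CPM in Rspo1-positive cells. Every untreated library was above every treated one, and within each passage the order was untreated, then Rspo1-negative, then Rspo1-positive. The fitted log2 fold change against untreated cells was -4.11 (SE 0.53) in Rspo1-positive and -2.51 (SE 0.49) in Rspo1-negative cells. Within a passage, untreated cells had 8.68 to 33.0 times the Tff3 of Rspo1-positive cells and 3.50 to 9.92 times that of Rspo1-negative cells. In bulk samples such as these, fewer cells of a type and less RNA per cell cannot be told apart.

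Tff2 was nearly as abundant as Tff3 in untreated cells and differed less between groups. It stood at 373, 807 and 483 CPM in untreated cells (passages 5, 6 and 10), 264, 304 and 213 CPM in Rspo1-negative cells and 140, 137 and 120 CPM in Rspo1-positive cells. The 3 groups did not overlap. Its log2 fold change against untreated cells was -2.07 (SE 0.26) in Rspo1-positive cells and -1.09 (SE 0.26) in Rspo1-negative cells.

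Tff1 was the rarest of the 3 trefoil factors. Its values were 41.8, 26.6 and 16.7 CPM in untreated, 15.6, 12.5 and 7.33 CPM in Rspo1-negative and 10.2, 8.10 and 4.20 CPM in Rspo1-positive cells, in passage order. Untreated libraries lay above all treated ones, but the lowest untreated value, at passage 10, was close to the highest treated value, at passage 5. The log2 fold changes against untreated cells were -1.92 (SE 0.41) in Rspo1-positive and -1.26 (SE 0.40) in Rspo1-negative cells.

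Pgc went the other way. It was at 2.22, 3.58 and 8.69 CPM in untreated cells, 24.6, 24.3 and 60.1 CPM in Rspo1-negative cells, and 23.0, 17.9 and 51.3 CPM in Rspo1-positive cells. Every treated library exceeded every untreated library, and the 2 treated groups overlapped. The log2 fold change against untreated cells was 2.67 (SE 0.58) in Rspo1-positive and 2.90 (SE 0.58) in Rspo1-negative cells, which within a passage was 5.01 to 10.4 times and 6.78 to 11.1 times the untreated level.

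Muc1, the membrane mucin of many ductal epithelia, had the most counts of the set. It stood at 876, 1222 and 1249 CPM in untreated, 667, 632 and 775 CPM in Rspo1-negative and 713, 630 and 811 CPM in Rspo1-positive cells. Untreated libraries were the highest, with a log2 fold change of -0.64 (SE 0.18) in Rspo1-positive and -0.69 (SE 0.18) in Rspo1-negative cells; with the offset for GC content and length the second value was -1.06.

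Muc4 differed in its order from the trefoil factors. The values were 452, 253 and 536 CPM in untreated cells, 77.4, 151 and 56.8 CPM in Rspo1-negative cells, and 285, 205 and 210 CPM in Rspo1-positive cells. The Rspo1-negative libraries were the lowest, and the Rspo1-positive ones lay between them and the other groups, overlapping the untreated libraries. Its log2 fold change against untreated cells was -2.12 (SE 0.37) in Rspo1-negative and -0.83 (SE 0.36) in Rspo1-positive cells.

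The gastric gel-forming mucins were near the limit of detection. Muc5ac had 4 to 44 counts in a library, or 0.123 to 1.81 CPM, and its 3 groups overlapped. Muc6 had 5 to 18 counts in untreated libraries, 0 to 10 in Rspo1-negative and 3 to 9 in Rspo1-positive libraries. Gkn2 had 2 counts in 1 untreated library and 0 in the other 8. A floor of 3 counts, which is what a count of 0 allows for counting error alone, corresponds to 0.0739 to 0.127 CPM. Lyz2 had 0 to 4 counts in every library, so the macrophage lysozyme was at or near 0 in all groups. Among the other markers of gastric parietal, chief and pit cells, Atp4b, Gif, Pga5 and Gast had at most 3 counts in every library, so Pgc was detected where these stomach genes were at or under the floor. Atp4a, a subunit of the parietal cell proton pump, was measurable at 6.74 ± 1.71 CPM in untreated cells.

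The libraries did not overlap for 5 of the 7 genes in Rspo1-positive against untreated cells and for 6 in Rspo1-negative against untreated cells, where 23.2% and 36.3% of all genes did not. With the offset for GC content and length, the log2 fold changes of Rspo1-negative against untreated cells were -2.84 for Tff3, -1.40 for Tff2, -1.59 for Tff1, 2.48 for Pgc and -1.80 for Muc4. Since these differences chose the set, nothing is read from those counts.

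**Figure D1:**
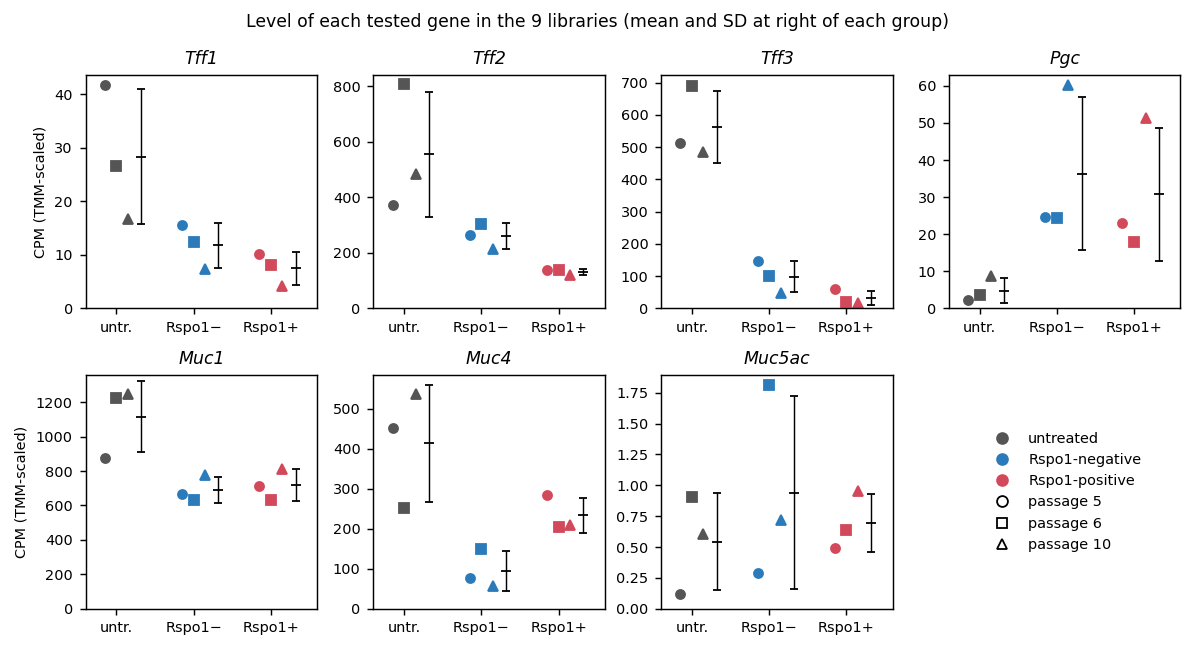
Level of each of the 7 tested genes in CPM (y axis, linear) in the 9 libraries, by group (x axis and colour) and passage (symbol); the bars beside the points give mean and SD of 3 libraries. Tff1, Tff2 and Tff3 step down from untreated over Rspo1-negative to Rspo1-positive cells, Pgc is higher in both treated groups, and Muc4 is lowest in Rspo1-negative cells.

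Levels of different genes were compared per transcript length, in the deposited FPKM (fragments per kilobase of transcript, scaled to library size). In untreated cells Tff3 led with 1124 ± 221 FPKM (SD, n = 3), followed by Tff2 with 934 ± 379, whose libraries overlapped those of Tff3, and by Muc1 with 490 ± 90.1. Tff1 (58.4 ± 26.2) and Muc4 (36.1 ± 12.7) overlapped each other, and Pgc was at 3.42 ± 2.41. By FPKM among all genes of a library, Tff3 held rank 33 to 37 in untreated, 235 to 727 in Rspo1-negative and 425 to 1853 in Rspo1-positive libraries. The order within the set thus differed between groups. In Rspo1-negative cells Tff2 came highest with 450 ± 80.7 FPKM, ahead of Muc1 with 311 ± 31.4 and Tff3 with 203 ± 104, and the last 2 overlapped. Among Rspo1-positive libraries Muc1 led with 316 ± 35.4, above Tff2 with 224 ± 20.7 and Tff3 with 65.1 ± 46.6, and these 3 did not overlap. Pgc (21.7 ± 12.4), Muc4 (20.4 ± 3.98) and Tff1 (15.5 ± 6.44) were neighbours there that did not differ beyond their spread.

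The trefoil factors did not keep their proportion to each other. The FPKM ratio of Tff2 to Tff3 was 0.614, 0.986 and 0.840 in untreated libraries, so Tff3 was the more abundant in each. It was 1.52, 2.57 and 3.67 in Rspo1-negative and 2.00, 5.54 and 5.85 in Rspo1-positive libraries, so Tff2 was the more abundant in each of these. The sum of Tff1, Tff2 and Tff3 ran from 1743 to 2789 FPKM in untreated, 476 to 808 in Rspo1-negative and 243 to 377 in Rspo1-positive libraries, with no overlap between groups.

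**Figure D2:**
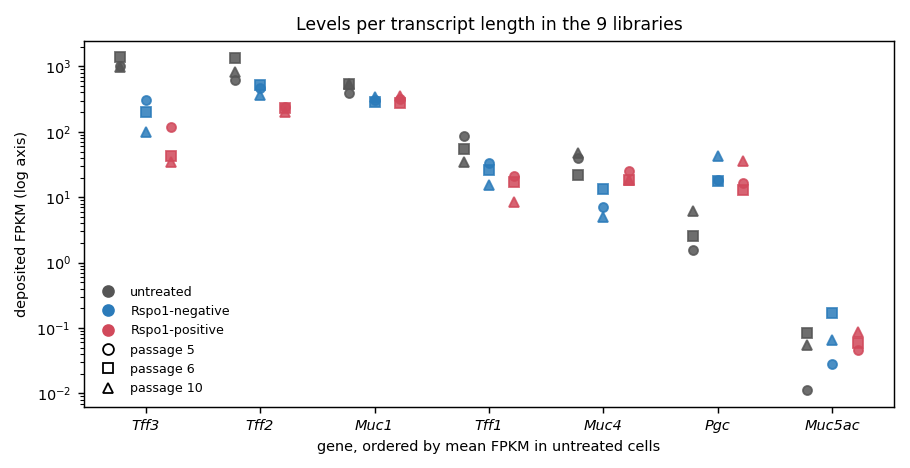
Deposited FPKM (y axis, log scale) of the 7 tested genes in the 9 libraries, ordered from left to right by the mean in untreated cells; colour gives the group and symbol the passage. Tff3 moves from the top of the order in untreated cells to below Tff2 and Muc1 in Rspo1-positive cells, while Muc5ac stays under 1 FPKM in every library.

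The gate comparison under Rspo1 asks how the genes differ between cells that did and did not report Axin2 activity in the same treated cultures. It was not the contrast that chose the set, although it uses the same treated libraries. At an adjusted p under 0.05, 2 of the 7 genes fell and 1 rose, where 24.3% of all 17011 genes were called, 9.78% lower and 14.6% higher. Tff3 was lower in Rspo1-positive cells in 3 of 3 passages, with a log2 fold change of -1.60 (SE 0.48; edgeR adjusted p = 0.0338, n = 3 per group). Tff2 was lower in 3 of 3 passages as well, by a log2 fold change of -0.98 (SE 0.26; edgeR adjusted p = 0.0207), and its groups did not overlap, as was the case for 45.2% of all genes. Muc4 was higher in 3 of 3 passages, by 1.30 (SE 0.36; edgeR adjusted p = 0.0258), also without overlap.

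Without the passage as a replicate block, none of these 3 calls held with the offset for GC content and transcript length, where 8.53% of all genes were called and 4 of the 7 genes had an unadjusted p under 0.05. There the log2 fold change of Tff3 was -1.21 with an edgeR adjusted p of 0.155, that of Tff2 was -0.62 with 0.177, and that of Muc4 was 0.96 with 0.0743. With block and offset together Tff3 (-1.26, edgeR adjusted p = 0.020) and Muc4 (0.95, edgeR adjusted p = 0.040) were called and Tff2 was not (-0.58, edgeR adjusted p = 0.0518). In that fit 3 of the 7 genes were called, the other being Muc1, where 23.4% of all genes were, and with the block alone 4 of the 7, where 38.9% of all genes were. The GC content of Tff3 was 55.0% and that of Tff2 53.6%, above 76.7% and 69.3% of the tested genes. Muc4 with 49.7% was near the median of 49.9%, but its longest transcript had 11277 bases against a median of 2898. Single libraries also decided the calls. Tff3 lost its call without Rspo1-negative replicate 1 or 2 or Rspo1-positive replicate 2 or 3, with edgeR adjusted p values up to 0.131. Tff2 lost it without any 1 of the 6 libraries other than Rspo1-negative replicate 3, and Muc4 without any 1 other than Rspo1-negative replicate 2, with edgeR adjusted p values up to 0.0713 and 0.0950. Over 14 alternative settings the edgeR or DESeq2 adjusted p ran from 1.28e-05 to 0.155 for Tff3, 0.000286 to 0.177 for Tff2 and 5.77e-05 to 0.0950 for Muc4, and the direction of each was the same in all 14.

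Tff1 was lower in Rspo1-positive cells in 3 of 3 passages without passing the test, with a log2 fold change of -0.66 (SE 0.40; edgeR adjusted p = 0.261). With the passage as a replicate block its value was -0.67 with an edgeR adjusted p of 0.00395. With the offset the value was smaller in size, -0.26 (edgeR adjusted p = 0.725), and with block and offset -0.28 (edgeR adjusted p = 0.143); over the 14 settings the adjusted p ran from 0.00395 to 0.725. Pgc did not pass the test between the gates, with a log2 fold change of -0.24 (SE 0.53; edgeR adjusted p = 0.778). The 95% interval of its ratio, 0.375 to 1.92, spans differences in both directions, and with the offset for GC content and length its log2 fold change was 0.24. Muc1 did not pass either (log2 fold change 0.055, SE 0.18; edgeR adjusted p = 0.855), and its 95% interval was 0.786 to 1.37. With the offset its value was 0.45 (edgeR adjusted p = 0.130), and with block and offset 0.44 (edgeR adjusted p = 0.0499). Muc5ac, at its low counts, had a log2 fold change of -0.41 (SE 0.71; edgeR adjusted p = 0.709), and of -0.50 with the offset.

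The authors' deposited table for the same comparison listed log2 fold changes of -1.70 for Tff3, -0.98 for Tff2, -0.69 for Tff1 and 1.39 for Muc4, with adjusted p-values of 2.5e-21, 3.12e-14, 0.000951 and 0.00592. Pgc (-0.27, adjusted p = 0.104) and Muc1 (0.03, adjusted p = 0.843) did not pass there, and the other 4 genes were not among the 15807 of the authors' deposited table.

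**Figure D3:**
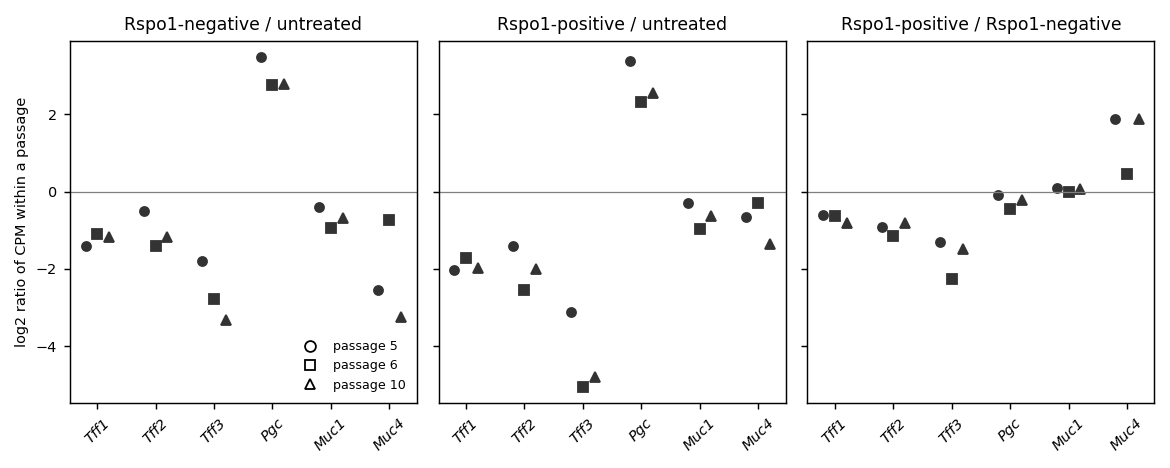
Log2 ratio of CPM between groups within each passage (y axis) for 6 genes (x axis), with a symbol per passage and a line at 0; the panels compare Rspo1-negative with untreated, Rspo1-positive with untreated, and Rspo1-positive with Rspo1-negative cells. Tff1, Tff2 and Tff3 are below 0 in all 3 passages of every panel, Pgc is above 0 by more than 2 in the panels against untreated cells and just below 0 in the last, and Muc4 changes side between the panels.

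Passage was compared across the 3 groups in a model with group and passage, since each passage held a library of every group. The 3 libraries of a passage came from organoids of that passage of the same animal, so these p-values do not cover differences between separate passage series. They measure the spread left between libraries once group and passage are fitted. From passage 5 to passage 10, 2 of the 7 genes fell and 1 rose, where 9.07% of all genes were called, 4.50% lower and 4.57% higher. Pgc rose by a log2 fold change of 1.40 (SE 0.18; edgeR adjusted p = 0.00133) and was higher in 3 of 3 groups, by 3.92 times in untreated, 2.44 times in Rspo1-negative and 2.23 times in Rspo1-positive cells. Tff1 had the opposite course, with a log2 fold change of -1.23 (SE 0.14; edgeR adjusted p = 0.000769), and was lower in 3 of 3 groups. Both calls held in all 14 alternative settings, with adjusted p-values from 1.6e-14 to 0.0277 for Pgc and 1.39e-11 to 0.0175 for Tff1.

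Tff3 also fell from passage 5 to 10, with a log2 fold change of -1.19 (SE 0.31; edgeR adjusted p = 0.0354). The level at passage 10 was 0.947 of that at passage 5 in untreated cells, 0.334 in Rspo1-negative cells and 0.294 in Rspo1-positive cells. A difference between groups in this step could not be tested with 1 library each. The call was lost without replicate 1 or 3 of either Rspo1 group and without either whole Rspo1 group, and the edgeR or DESeq2 adjusted p ran from 4.32e-13 to 0.226 over the 14 settings. Tff2 differed little from passage 5 to 10 (log2 fold change -0.074, SE 0.19; edgeR adjusted p = 0.841), with a 95% interval of its ratio from 0.710 to 1.27. Muc1 had a log2 fold change of 0.30 (SE 0.16; edgeR adjusted p = 0.246) and Muc4 of -0.16 (SE 0.35; edgeR adjusted p = 0.806).

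Between passages 6 and 10, 2 of the 7 genes passed the test, Pgc upward with a log2 fold change of 1.38 (SE 0.18; edgeR adjusted p = 0.00129) and Tff1 downward with -0.79 (SE 0.14; edgeR adjusted p = 0.00687), where 8.45% of all genes were called, 4.40% higher and 4.05% lower. The Tff1 call was lost without Rspo1-positive replicate 3 (edgeR adjusted p = 0.0502) and without the whole Rspo1-positive group (edgeR adjusted p = 0.102), in a range of 8.87e-05 to 0.102 over 14 settings. From passage 5 to 6 edgeR called 0 of the 7 genes, 3 had an unadjusted p under 0.05, DESeq2 called 1, and 2.49% of all genes were called. The DESeq2 call was Muc5ac, whose level in untreated, Rspo1-negative and Rspo1-positive cells was 0.123, 0.293 and 0.492 CPM at passage 5, 0.903, 1.81 and 0.641 CPM at passage 6, and 0.604, 0.720 and 0.951 CPM at passage 10. Passage 5 was the lowest in each group. The log2 fold change from passage 5 to 6 was 1.86 (SE 0.49; edgeR adjusted p = 0.0782) in the reported fit and 1.91 with an adjusted p of 0.0269 in DESeq2; it was called in 3 of 14 settings, with adjusted p-values from 0.000742 to 0.474. From passage 5 to 10 it was 1.35 (SE 0.50; edgeR adjusted p = 0.11), and without the filter on low counts 1.31 (edgeR adjusted p = 0.0242). Pgc had a log2 fold change of 0.025 (SE 0.18; edgeR adjusted p = 0.968) from passage 5 to 6, with a 95% interval of its ratio from 0.776 to 1.33.

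**Figure D4:**
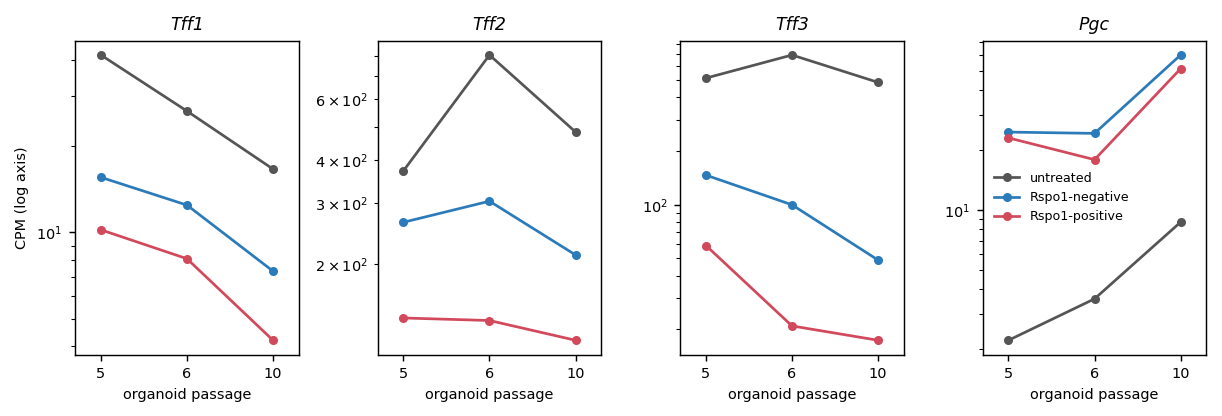
Level of Tff1, Tff2, Tff3 and Pgc in CPM (y axes, log scale) against organoid passage (x axis: 5, 6 and 10), with a line for each group and 1 library at each point. Tff1 is lowest and Pgc highest at passage 10 in all 3 groups, while Tff3 at passage 10 is 485 CPM in untreated cells, near its passage 5 level of 513, and lower than at passage 5 in both treated groups.

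Across the 9 libraries, the genes whose log2 CPM followed Tff3 most closely, of 11661 genes with a mean log2 CPM above 2, were Fam3b (Pearson r = 0.973), Gnaz (0.963), Gcnt3 (0.959), Fam20a (0.955) and Dio1 (0.953). Fam3b, a secreted cytokine-like protein, stood at 23.7 CPM on average in untreated, 9.87 in Rspo1-negative and 4.25 in Rspo1-positive cells. Gcnt3, an enzyme that branches mucin O-glycans, stood at 554, 314 and 261 CPM in that order. The genes nearest to Pgc were Sox12 (0.983), Aqp1 (0.978), Fgfr4 (0.977), Ecscr (0.973) and Acd (0.964). Aqp1, the water channel of bile duct cells, was at 44.7 CPM in untreated, 282 in Rspo1-negative and 171 in Rspo1-positive cells. The libraries share treatment and passage, so such correlations describe a common order of 9 points. Within the set, r was 0.934 between Tff2 and Tff3, 0.916 between Tff1 and Tff3, -0.825 between Tff3 and Pgc, and 0.437 between Tff3 and Muc4.

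Genes next to the trefoil cluster were read after their values were seen, and 4 of those within 200 kb of it had enough counts to be fitted. Slc37a1 had a log2 fold change of -0.82 (SE 0.15) in Rspo1-positive against untreated cells, with 181 to 243 CPM in untreated and 115 to 129 CPM in Rspo1-positive libraries. Abcg1, a cholesterol exporter beside Tff3, had -1.40 (SE 0.56) and Tmprss3, a serine protease beside Tff1, -1.45 (SE 0.38), at means of 11.5 and 2.24 CPM in untreated cells. Rsph1, a protein of cilia, had -0.53 (SE 0.31). These 4 values were smaller in size than those of Tff1, Tff2 and Tff3 in the same comparison. In Rspo1-negative against untreated cells Slc37a1 (-0.44, SE 0.15), Abcg1 (-0.53, SE 0.55) and Rsph1 (-0.56, SE 0.31) were smaller in size than the trefoil factors, but Tmprss3 (-1.13, SE 0.38; -1.46 with the offset) was not smaller than Tff2 (-1.40 with the offset). These differences between genes were not tested.

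Mucins and trefoil peptides are made in a pathway that includes enzymes of O-glycosylation, other mucins, co-secreted defence proteins and the transcription factors of secretory cells, and 60 of 94 further genes on 5 such lists could be tested. In Rspo1-positive against untreated cells edgeR called 7 of the 60 (11.7%) at an adjusted p under 0.05, all lower, where 5.21% of all genes were called. In Rspo1-negative against untreated cells it called 13 (21.7%), all lower, a share close to the 21.9% of all genes. With the offset for GC content and length it called 11 (18.3%) there, all lower, where 9.58% of all genes were called. The calls were not all in 1 direction with the passage as a replicate block: 3 higher and 15 lower in Rspo1-positive cells, where 13.2% of all genes were called, and 7 higher and 20 lower in Rspo1-negative cells, where 35.5% were. Between the gates 8 of the 60 (13.3%) were called, 3 higher and 5 lower, where 24.3% of all genes were, and with the block 9 higher and 16 lower, where 38.9% were. The balance of directions there depended on the offset. With the offset 4 were higher and 1 lower, where 8.53% of all genes were called. With block and offset 10 were higher and 8 lower, where 23.4% were.

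Of 27 tested genes of mucin maturation and glycosylation, 5 fell and 0 rose in Rspo1-positive against untreated cells, with a list median log2 fold change of -0.43 beside -0.011 over all genes; 5.21% of all genes were called. St3gal1, which caps mucin-type glycans with sialic acid, fell from 207 ± 21.5 CPM (SD, n = 3) to 87.9 ± 15.7, a log2 fold change of -1.23 (SE 0.16; edgeR adjusted p = 0.00176). Gcnt3 fell by a log2 fold change of -1.09 (SE 0.16; edgeR adjusted p = 0.00337), and both calls held in all 14 alternative settings. C1galt1, which builds the core 1 glycan, fell from 119 ± 20.7 to 70.7 ± 8.85 CPM, with a log2 fold change of -0.75 (SE 0.16; edgeR adjusted p = 0.0219). Gcnt1 (-1.18, SE 0.29; edgeR adjusted p = 0.0396) and B3gnt3 (-0.64, SE 0.16; edgeR adjusted p = 0.0416) completed the calls. The last 3 held in 9, 9 and 8 of 14 settings. With the replicate block 7 fell and 1 rose (29.6%), where 13.2% of all genes were called. The added ones were Galnt7 (-0.54, edgeR adjusted p = 0.0401), the fucosyltransferase Fut2 (-0.43, edgeR adjusted p = 0.0367) and, upward, Agr2, a disulfide isomerase needed for mucin folding (0.81, edgeR adjusted p = 0.0371).

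In Rspo1-negative against untreated cells 8 of the 27 (29.6%) fell and 0 rose, where 21.9% of all genes were called, with a list median of -0.28 beside -0.018 over all genes. St3gal1 (-0.95, SE 0.16; edgeR adjusted p = 0.00333), Gcnt3 (-0.82, SE 0.16; edgeR adjusted p = 0.00650), Gcnt1 (-1.40, SE 0.29; edgeR adjusted p = 0.00840) and C1galt1 (-1.61, SE 0.16; edgeR adjusted p = 0.000993) fell here too. The other 4 were Galnt1, Galnt3, Galnt5 and Galnt7, of the family that starts O-glycosylation. Galnt3 went from 144 ± 10.3 to 79.0 ± 14.7 CPM (log2 fold change -0.86, SE 0.15; edgeR adjusted p = 0.00370). Galnt5 went from 0.967 ± 0.519 to 0.174 ± 0.0703 CPM, the last near the floor of 3 counts at 0.0739 to 0.127 CPM. With the offset for GC content and length 6 of the 27 (22.2%) were called, where 9.58% of all genes were; C1galt1 was at -0.80 (edgeR adjusted p = 0.00870), and Galnt1 and Gcnt1 lost their calls (edgeR adjusted p = 0.104 and 0.0608). With the replicate block 10 fell and 1 rose (40.7%), where 35.5% of all genes were called. Galnt4 (-0.59, edgeR adjusted p = 0.0115) and Chst4 (-0.81, edgeR adjusted p = 0.0307) joined the falls, and Galnt6 rose (1.43, edgeR adjusted p = 0.0104). Galnt4 lost its call with block and offset (-0.26, edgeR adjusted p = 0.221). Chst4 (-1.16, edgeR adjusted p = 0.00896) and Galnt6 (1.16, edgeR adjusted p = 0.0382) kept theirs. Galnt6 was at low counts, with 0.454 ± 0.300 CPM in untreated and 1.21 ± 0.702 CPM in Rspo1-negative cells. Between the gates 3 of the 27 were higher and 3 lower in Rspo1-positive cells, a share of 22.2% beside 24.3% of all genes. With the offset edgeR called 0, with 5 at an unadjusted p under 0.05, where 8.53% of all genes were called. With the block 5 were higher and 4 lower (33.3%), where 38.9% of all genes were called. With block and offset 2 were higher and 4 lower (22.2%), a share close to the 23.4% of all genes. Of the 6 calls of the reported fit C1galt1 had the largest difference (0.86, SE 0.16; edgeR adjusted p = 0.00575), and it held in 12 of 14 settings; with the offset it was 0.051 with an edgeR adjusted p of 0.834.

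**Figure D5:**
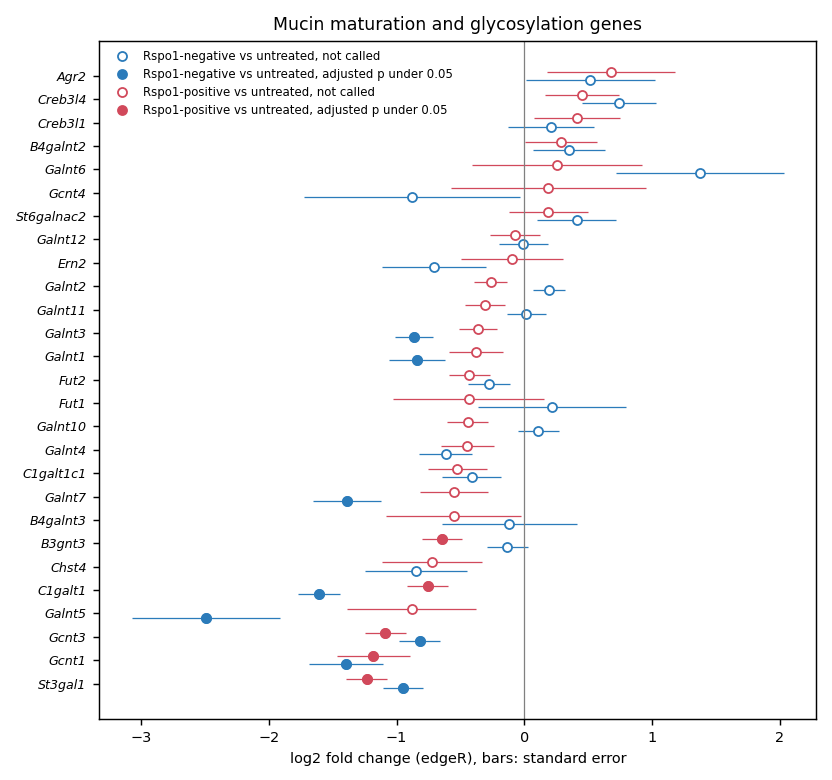
Log2 fold change (x axis, edgeR, bars give the standard error) of 27 genes of mucin maturation and glycosylation (y axis, ordered by the Rspo1-positive value) against untreated cells; red marks Rspo1-positive and blue Rspo1-negative cells, and filled points passed an adjusted p under 0.05. All filled points lie below 0 in this fit without the replicate block, and those filled in both colours are St3gal1, Gcnt1, Gcnt3 and C1galt1.

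Among 4 other mucins that could be tested, Muc20, a membrane mucin whose exons overlap Muc4, fell from 272 ± 55.2 to 135 ± 14.0 CPM in Rspo1-negative cells (log2 fold change -1.01, SE 0.16; edgeR adjusted p = 0.00278), and with the offset the value was -1.19 (edgeR adjusted p = 0.00473). In Rspo1-positive cells it stood at 179 ± 1.88 CPM, or -0.61 on the log2 scale against untreated cells (edgeR adjusted p = 0.0581), and was called with the replicate block (-0.59, edgeR adjusted p = 0.0148). In that comparison edgeR called 0 of the 4, where 5.21% of all genes were called. Of the 4, 2 had an unadjusted p under 0.05 and DESeq2 called 2. Muc13, a membrane mucin of gut epithelium, had 35.1 ± 24.1 CPM in untreated, 8.83 ± 5.02 in Rspo1-negative and 6.05 ± 5.44 in Rspo1-positive cells. Without the replicate block it did not pass against untreated cells (edgeR adjusted p = 0.0536 and 0.0587), and with the block it was called in both comparisons, with log2 fold changes of -1.93 (edgeR adjusted p = 0.000236) and -2.62 (edgeR adjusted p = 2.5e-05). Between the gates the block called Muc13 lower (-0.69, edgeR adjusted p = 0.0346) and Muc20 higher (0.41, edgeR adjusted p = 0.0326) in Rspo1-positive cells, which without it had adjusted p-values of 0.588 and 0.0945. With block and offset together Muc20 was called (0.58, edgeR adjusted p = 0.00884) and Muc13 was not (-0.54, edgeR adjusted p = 0.113). Muc2, the gel-forming mucin of intestinal goblet cells, was at 1.45 ± 1.64, 0.561 ± 0.193 and 0.888 ± 0.551 CPM. Of 3 other gastric genes tested, Atp4a, Ghrl and Vsig1, edgeR and DESeq2 called 0 in each comparison with untreated cells, and 0 and 1 had an unadjusted p under 0.05 in edgeR for Rspo1-positive and Rspo1-negative cells. Over all genes edgeR called 5.21% for Rspo1-positive and 21.9% for Rspo1-negative cells. Between the gates the replicate block called Ghrl, the ghrelin gene, higher (1.48, edgeR adjusted p = 0.0488) and Atp4a lower (-0.54, edgeR adjusted p = 0.0287). With block and offset together Ghrl kept its call (1.79, edgeR adjusted p = 0.0387) and Atp4a lost it (-0.21, edgeR adjusted p = 0.3498). Vsig1 was called lower in that fit (-0.59, edgeR adjusted p = 0.00763). With the offset alone none of these genes was called. Ghrl was at low counts, with 0.268 ± 0.142 CPM in Rspo1-negative and 0.774 ± 0.0952 CPM in Rspo1-positive cells.

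The 12 tested secreted defence genes included Fcgbp, a mucus protein that binds the Fc part of IgG, with the clearest step between the gates. It stood at 1772 ± 384 CPM in untreated, 1258 ± 134 in Rspo1-negative and 521 ± 72.9 in Rspo1-positive cells. The log2 fold change was -1.27 (SE 0.20; edgeR adjusted p = 0.00258) against Rspo1-negative and -1.77 (SE 0.20; edgeR adjusted p = 0.00118) against untreated cells, and both calls held in all 14 settings, the offset included. Dmbt1, a scavenger-receptor protein of mucosal secretions, fell from 22487 ± 10758 to 9223 ± 3174 CPM in Rspo1-negative (log2 fold change -1.29, SE 0.39; edgeR adjusted p = 0.0385) and 7586 ± 1330 CPM in Rspo1-positive cells (-1.57, SE 0.39; edgeR adjusted p = 0.0452), and each call held in 8 of 14 settings; with the offset the first was -1.22 (edgeR adjusted p = 0.0669). Wfdc2, a secreted protease-inhibitor-like protein, was lower on the positive than on the negative side of the gate (log2 fold change -0.79, SE 0.18; edgeR adjusted p = 0.0120), but with the offset the edgeR adjusted p was 0.272. The calls among the 12 genes were thus 2 between the gates, 2 in Rspo1-positive and 1 in Rspo1-negative against untreated cells, where 24.3%, 5.21% and 21.9% of all genes were called, and the last was lost with the offset. With the replicate block 7 of the 12 (58.3%) were lower between the gates, where 38.9% of all genes were called. With block and offset 3 (25%) were lower there, where 23.4% were. In Rspo1-positive against untreated cells the block called 4 (33.3%) lower, where 13.2% of all genes were called. In Rspo1-negative against untreated cells 4 were lower and 1, Reg1, higher (1.53, edgeR adjusted p = 0.0134), where 35.5% were. Reg1 was at low counts, with 0.532 ± 0.614 CPM in untreated and 1.45 ± 1.46 CPM in Rspo1-negative cells. Pigr, the receptor that carries IgA across epithelia, was among those the block added, with -1.18 (edgeR adjusted p = 0.00606) in Rspo1-positive and -0.84 (edgeR adjusted p = 0.0148) in Rspo1-negative against untreated cells. Clca1, a secreted mucus protein of goblet cells, was added in all 3 comparisons, with -1.65 (edgeR adjusted p = 0.00255) between the gates.

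Of 14 tested transcription factors of gut and secretory cells, 3 fell in Rspo1-negative against untreated cells: Klf5 (log2 fold change -0.62, SE 0.14; edgeR adjusted p = 0.0108), Klf4 (-0.98, SE 0.26; edgeR adjusted p = 0.0241) and Foxa1 (-0.83, SE 0.25; edgeR adjusted p = 0.0355). These 3 of 14 (21.4%) were a share close to the 21.9% of all genes called. With the offset 4 of the 14 (28.6%) were called, all lower, where 9.58% of all genes were. The Klf5 call held in all 14 settings, that of Klf4 in 10 and that of Foxa1 in 9, and with the offset the values were -0.67, -1.34 and -1.14. With the replicate block 9 of the 14 were called, 4 lower and 5 higher, where 35.5% of all genes were called. Those higher were Spdef, Foxa3, Gata5, Bhlha15 and Xbp1, and of these Bhlha15, a factor of secretory cell maturation, was also called with block and offset (0.83, edgeR adjusted p = 0.0485). In that fit Bhlha15 was the only gene of the 14 called higher, and 7 were called lower. For Rspo1-positive against untreated cells edgeR called 0 of the 14, where 5.21% of all genes were called. Of the 14, 3 had an unadjusted p under 0.05 and DESeq2 called 1. The block called Foxa3 and Bhlha15 higher and Klf4 and Hnf4a lower, where 13.2% of all genes were called. Between the gates edgeR called 0 of the 14, where 24.3% of all genes were called. Of the 14, 3 had an unadjusted p under 0.05 and DESeq2 called 2. The block called 2 higher and 3 lower in Rspo1-positive cells, where 38.9% of all genes were called. The offset called 3, all higher, where 8.53% were. Block and offset together called 6 (42.9%), all higher, where 23.4% were. Spdef, the goblet cell factor, was at 1.87 ± 0.761, 3.95 ± 1.24 and 2.47 ± 1.33 CPM in untreated, Rspo1-negative and Rspo1-positive cells and did not pass in any comparison between groups in the reported fit. With the block Rspo1-negative cells exceeded untreated cells (1.10, edgeR adjusted p = 0.00780) and Rspo1-positive cells were below Rspo1-negative ones (-0.75, edgeR adjusted p = 0.0355), and neither call held with block and offset together (edgeR adjusted p = 0.0832 and 0.421). Atoh1, the factor that starts the intestinal secretory lineage, had at most 3 counts in every library, so Tff3 was abundant in untreated cells where Atoh1 was at or near 0.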

How the data were processed

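RNA from sorted cells was sequenced in 9 libraries, 3 for each of 3 groups, with 75 bp single-end reads. Per the submitters' processing notes, Trimmomatic 0.35, FastQC 0.11.2, STAR 2.5.1b, featureCounts and DESeq2 were used with GRCm38; their settings are not given in the sources used here. The authors deposited a raw count and an FPKM value per gene and library, and the FPKM scale followed median-of-ratios size factors. The authors' deposited tables of comparisons give log2 fold changes, their standard errors and test statistics (score) and p-values. Values taken from them are named as the authors' where they are quoted.

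Counts were scaled to CPM with TMM factors (edgeR 4.0.16, R 4.3.3) and filtered with filterByExpr (at least 10 counts). All 9 libraries entered 1 quasi-likelihood fit on group, or on group and passage for the passage comparisons, with Benjamini-Hochberg adjustment over 17011 genes and a threshold of 0.05. log2 CPM for correlations used a prior count of 2. The script was also run on simulated data with known differences and no effect of GC content, length or passage. It called 59 of 100 genes with a log2 fold change of size 1 and 98 of 100 with size 2.

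The replicate numbers are passages in the labels, so they pair libraries: the deviations of libraries of the same passage correlated at 0.123 to 0.573 (9 pairs), those of different passages at -0.476 to 0.0826 (18 pairs). Blocked values are given where the block changed the call of a gene whose values the text gives, and blocked counts beside the counts of the secretory lists. Alternatives were other scalings, no filter, DESeq2 1.42.0, an offset for GC content and length (spline with 5 degrees of freedom), the replicate block, fewer groups, and leaving out each replicate. GC content and length came from GENCODE M21, which held 32116 of the 32137 gene identifiers. RefSeq promoter entries matched 6 of the 10 genes by symbol. Named genes are the 10 members, the listed genes, and the 5 genes most like Tff3 and most like Pgc; neighbours of the trefoil cluster were added after their values were seen. The members and lists were chosen with earlier results of these data known.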

Additional observations from a re-analysis of the deposited data

How the results depend on the processing

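Between Rspo1-positive and Rspo1-negative cells, 3 of the 10 genes were called in the reported fit, 4 with the replicate block, 0 with the offset for GC content and length, 3 (2 higher and 1 lower) with block and offset together, and 0 to 2 with 1 replicate left out. Over all genes the count was 4141, with 6624 under the replicate block, 1451 under the offset and 2061 to 4068 with 1 replicate left out. For Pgc the log2 fold change there was 0.24 with the offset and 0.22 with the replicate block and offset together. Leaving out 1 replicate gave -0.83 to 0.27 for Pgc, -0.043 to 0.14 for Muc1 and -0.87 to 0.48 for Muc5ac. Muc1 was called with the replicate block and offset together (0.44, edgeR adjusted p = 0.0499). Against untreated cells Muc5ac ran from -0.11 to 0.92 in Rspo1-positive and from -0.11 to 1.33 in Rspo1-negative cells with 1 replicate left out.

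The count of listed genes in Rspo1-positive against untreated cells was 7, with 12 without the filter, 18 under the replicate block, 21 under block and offset, 11 by DESeq2, 4 with only the 6 libraries and 3 to 8 with 1 replicate left out. Over all genes the count was 886, with 1446, 2247, 2677 and 1506 in that order and 390 to 899 with 1 replicate left out. In Rspo1-negative against untreated cells 13 listed genes became 20 without the filter, 27 under the replicate block, 27 under block and offset and 9 to 14 with 1 replicate left out. Over all genes 3724 became 6039 under the replicate block, 1629 under the offset, 2299 with only the 6 libraries and 1800 to 3772 with 1 replicate left out.

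For passages 10 and 5 the counts over all genes were 1543 in the reported fit, 2784 without the filter, 370 and 318 without the Rspo1-negative and Rspo1-positive group, and 405 to 702 with 1 replicate left out, while 2 to 3 of the 10 genes were called. For passages 6 and 5 they were 423, 1193, 123 and 110, with 851 by DESeq2 and 105 to 846; of the 10 genes 0 were called, with 2 without the filter, 1 without the untreated group, 1 by DESeq2 and 0 to 1 with 1 replicate left out. For passages 10 and 6 they were 1438, 2456, 464 and 328, with 548 to 1460; of the 10 genes 2 were called, with 4 without the filter, 1 without the Rspo1-positive group and 1 to 2 with 1 replicate left out. Small differences between passages changed sign. From passage 5 to 10 Tff2 was 0.031 without the Rspo1-negative and 0.013 without the Rspo1-positive group. From passage 5 to 6 Pgc was -0.0029 without the filter and -0.19 without the untreated group, Muc1 was -0.13 and Muc4 0.30 without the untreated group, and Muc4 was 0.22 without the Rspo1-positive group. From passage 6 to 10 Muc4 was 0.54 without the Rspo1-negative group. With 1 replicate left out the ranges were -0.33 to 0.080 for Tff2 and -0.63 to 0.13 for Muc4 from passage 5 to 10, -0.17 to 0.22 for Pgc, -0.080 to 0.17 for Muc1 and -0.70 to 0.40 for Muc4 from passage 5 to 6, and -0.62 to 0.47 for Muc4 from passage 6 to 10. The cause of these changes was not tested, beyond the smaller number of libraries in some fits. Muc6, Gkn2 and Lyz2 had too few counts to be fitted, and Muc5ac at its low counts passed in a few of the settings only, for passage 5 against 6 or 10.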
